A study of Mus musculus with 96 samples.

Results

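The nuclear-encoded genes of oxidative phosphorylation were examined in single-cell RNA libraries of mouse metaphase II (MII) oocytes and 2-cell embryos. Members were the 83 symbols, of 36935 in the deposited table of counts, whose names follow the patterns for subunits of complex I (Nduf, 37 symbols), complex II (Sdh, 4), complex III (Uqcr, 8), complex IV (Cox4 to Cox8, 17) and ATP synthase (Atp5, 17). The name pattern leaves out subunits with other names, such as cytochrome c1 and Ndufab1. The study compared a mouse line carrying the P620A variant of Padi6, a gene for an oocyte protein of the cytoplasmic lattices, with wild type. Its 96 libraries are labelled as 22 MII oocytes homozygous for the variant (Padi6 P620A/P620A), 22 MII oocytes of Padi6+/+ mice, 22 blastomeres of 2-cell embryos that carry the variant from the mother (Padi6 MatP620A/+), 22 blastomeres of Padi6+/+ embryos, and 8 negative controls. Per the labels' protocols, oocytes came from gonadotropin-primed females of 4 to 8 weeks, and cumulus cells were removed with hyaluronidase. Per the same protocols, embryos were made in vitro with sperm of males of 8 to 12 weeks. Each library other than the negative controls was made from 1 picked oocyte or blastomere. The labels name no animal.

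The respiratory chain passes electrons from NADH (complex I) and succinate (complex II) through complex III to oxygen at complex IV, and ATP synthase uses the proton gradient that complexes I, III and IV build. Most subunits are encoded in the nucleus, and a few subunits of complexes I, III, IV and ATP synthase are encoded in mitochondrial DNA. Oocytes and early mouse embryos inherit all their mitochondria from the oocyte and take up pyruvate as their main fuel for oxidative phosphorylation. At the 2-cell stage most stored maternal RNA is degraded and the embryo's own genome is switched on.

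Libraries were sorted by 2 stage markers, with their stage labels ignored. Oocyte-like columns of the table had at least 100 CPM (counts scaled to 1000000 per library) of Mos, whose kinase keeps oocytes arrested in metaphase. The 2-cell-like columns had less than 100 CPM of Mos and at least 1 count of Zfp352, a gene first transcribed at the 2-cell stage. Of 79 libraries with at least 100000 counts and 4000 genes, 39 were 2-cell-like, 39 were oocyte-like and 1 was neither. The highest Mos level among 2-cell-like columns was 63.3 CPM and the lowest among oocyte-like columns was 201 CPM, and no oocyte-like column held a count of Zfp352. These classes went against many labels. The 2-cell-like columns were 19 libraries labelled mutant oocyte, 11 mutant 2-cell, 7 wild-type oocyte and 2 negative control, and the oocyte-like ones were 9 labelled mutant 2-cell, 14 wild-type 2-cell, 12 wild-type oocyte and 4 negative control.

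Gene counts per library ran from 503644 to 3185910 in 2-cell-like columns (median 1608305) and from 162539 to 5762563 in oocyte-like columns (median 3235838). The median number of genes with a count was 10370 against 13671. All 39 2-cell-like columns lay below the oocyte-like median in both measures. A list of 19 cumulus and granulosa cell markers separated the oocyte-like columns further. Its summed level was 0 to 155 CPM in 2-cell-like columns and 11.7 to 12769 CPM in oocyte-like columns, and 11 of the 39 oocyte-like columns reached 1000 CPM. Markers at a median of 0 numbered 17 of 19 in 2-cell-like columns and 5 of 19 in oocyte-like columns (Amh, Fshr, Foxl2, Has2 and Ptx3). Results are therefore given over all 39 oocyte-like columns and over the 28 with the list under 1000 CPM, called low-cumulus columns. The library of neither class, labelled mutant 2-cell, held 15.2 CPM of 13 oocyte markers together, 4.21 CPM of Padi6, 7024 CPM of the cumulus list and 8809 CPM of oviduct markers. It served as the single somatic column.

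The promoters of 3 members show motifs known from nuclear genes of the mitochondrion, with the start site of the gene 50 bases before the end of each sequence. They are RefSeq sequences of GRCm38.p6 read 5′ to 3′ on the gene's strand. Capitals mark the motif searched, which is CCGGAAGT, shown as its reverse complement, in Cox8a (ETS factors such as GABP), and the capitals as they stand in Ndufs4 (YY1) and in Uqcrc1 (NRF1, the same on both strands). Both strands were searched. Cox8a (chr19:7217567-7217866, minus strand) is shown for the members with more RNA in 2-cell-like columns, Ndufs4 (chr13:114388045-114388344, minus strand) for those with less, and Uqcrc1 (chr9:108936398-108936697, plus strand) as a match to the third motif, in a member whose ratio depended on how columns were combined.
Cox8a: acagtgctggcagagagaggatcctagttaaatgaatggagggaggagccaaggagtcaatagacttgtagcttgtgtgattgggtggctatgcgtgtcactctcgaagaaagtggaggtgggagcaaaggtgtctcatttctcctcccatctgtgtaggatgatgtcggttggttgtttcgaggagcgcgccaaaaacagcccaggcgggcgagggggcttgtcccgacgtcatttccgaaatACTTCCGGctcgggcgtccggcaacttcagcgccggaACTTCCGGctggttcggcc
Ndufs4: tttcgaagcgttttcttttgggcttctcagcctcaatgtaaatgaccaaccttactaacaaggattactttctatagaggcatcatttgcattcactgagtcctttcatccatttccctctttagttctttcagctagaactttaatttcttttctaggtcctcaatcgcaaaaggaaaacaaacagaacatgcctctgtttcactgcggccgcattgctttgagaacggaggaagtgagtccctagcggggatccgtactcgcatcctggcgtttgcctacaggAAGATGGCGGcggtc
Uqcrc1: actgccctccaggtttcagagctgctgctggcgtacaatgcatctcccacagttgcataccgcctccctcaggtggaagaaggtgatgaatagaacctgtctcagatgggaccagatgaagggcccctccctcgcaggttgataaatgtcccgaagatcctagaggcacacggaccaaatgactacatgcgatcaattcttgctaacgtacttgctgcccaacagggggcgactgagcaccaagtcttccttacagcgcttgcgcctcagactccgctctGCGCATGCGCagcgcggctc
Cox8a holds 2 matches to the ETS motif, Ndufs4 holds 1 to the YY1 motif and Uqcrc1 holds 1 to the NRF1 motif. Over the 68 member genes that matched the promoter table, each motif occurred in 5 of 73 promoters (6.85%), against 0.971% (NRF1), 3.89% (ETS) and 0.852% (YY1) of 32851 mouse promoters of the same length. Any of the 3 occurred in 15 of the 73 (20.5%), against 5.52% of all promoters. Matches were found in 1 of 8 member genes that were higher in 2-cell-like columns and had a promoter, in 7 of 23 that were lower and in 4 of 22 that were neither.

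The members together had a 2-cell-like median 1.26 times the oocyte-like one and 1.44 times the low-cumulus one. Single complexes differed in direction. The summed level of all members was 2112, 4099 and 8106 CPM (lowest, median, highest) in 2-cell-like columns, against 1774, 3240 and 28121 CPM in oocyte-like columns. It was above the oocyte-like median in 28 of 39 2-cell-like columns, and the ranges overlapped. In the 28 low-cumulus columns the sum was 1774, 2850 and 7046 CPM, and 34 of 39 2-cell-like columns exceeded that median. The subunits of complex IV, cytochrome c oxidase, summed to a median of 1542 CPM in 2-cell-like columns, against 788 CPM in oocyte-like and 545 CPM in low-cumulus columns, and 38 of 39 2-cell-like columns exceeded the oocyte-like median. The subunits of complex III, the cytochrome bc1 complex, stood on the other side, with a median of 147 CPM in 2-cell-like columns, against 448 CPM in oocyte-like and 357 CPM in low-cumulus columns, and all 39 2-cell-like columns lay below the oocyte-like median. Much of the low-cumulus sum of complex III, and of its gap to 2-cell-like columns, came from a single gene, Uqcrc2, whose levels are given below. The sum without Uqcrc2 was not worked out. Complex II had a median of 159 CPM in 2-cell-like columns, against 357 CPM in oocyte-like and 290 CPM in low-cumulus columns. Complex I (968 against 864 CPM) and ATP synthase (1046 against 995 CPM) differed least. Their 2-cell-like medians were 1.36 and 1.21 times those of low-cumulus columns, which 30 of 39 2-cell-like columns exceeded for each.

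**Figure D1:**
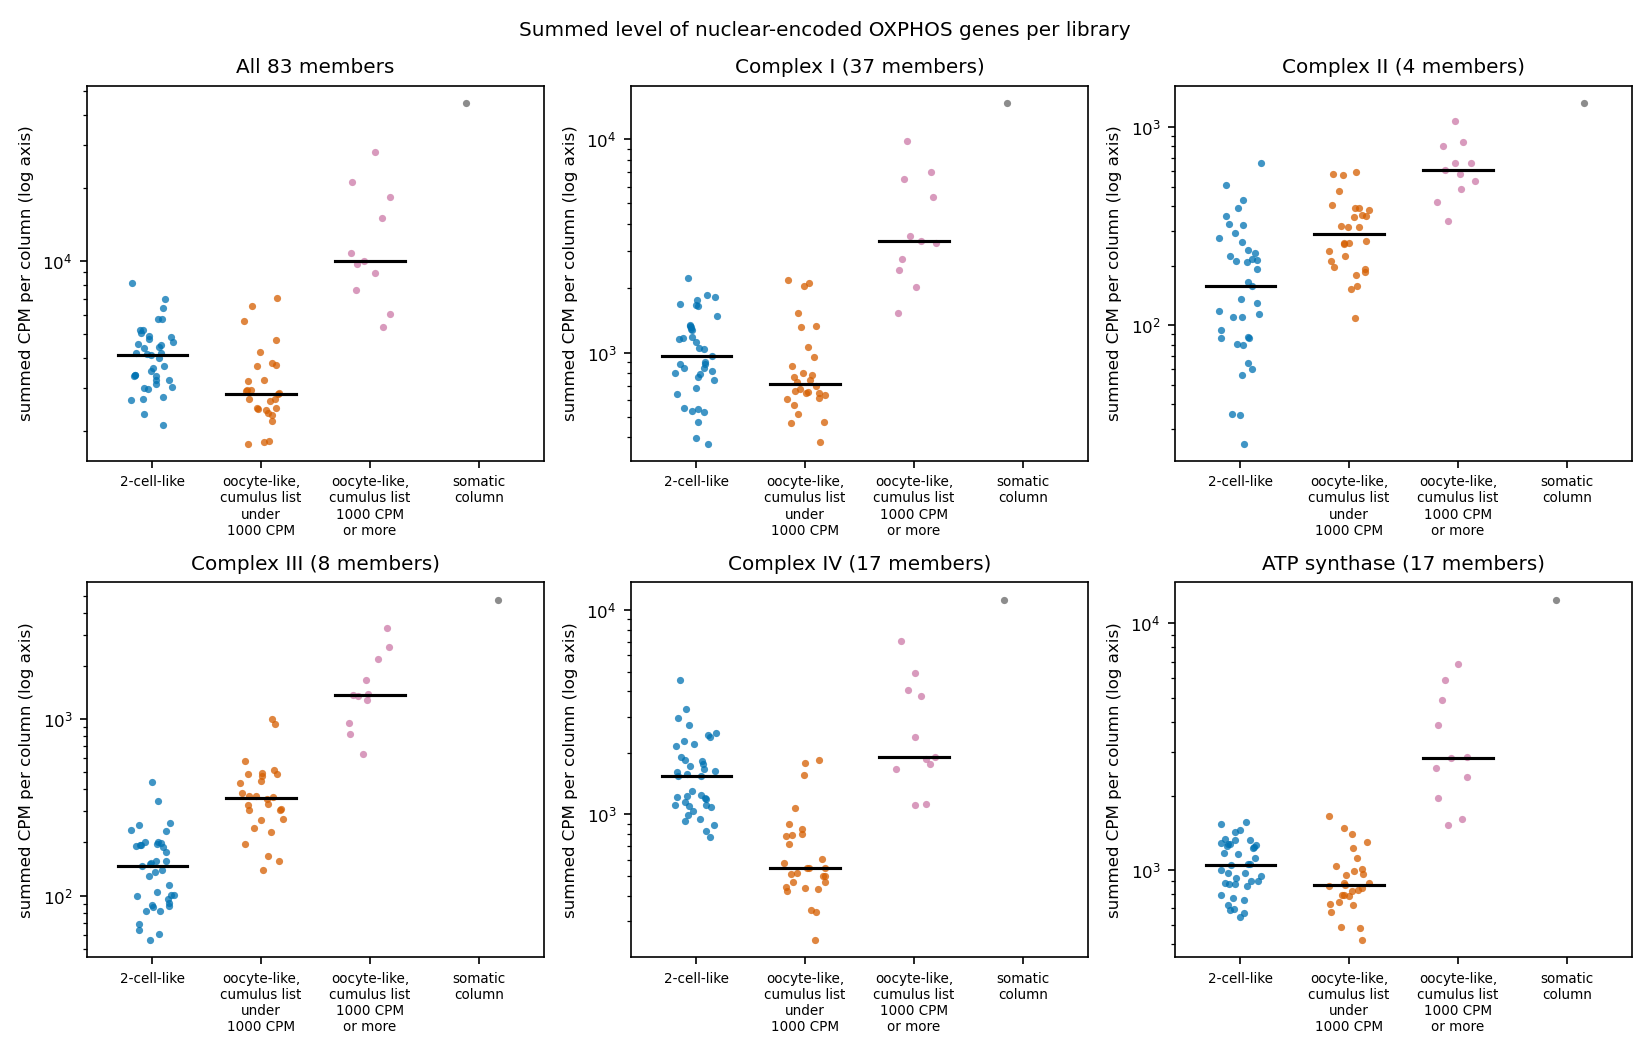
Summed CPM of the members per library on a log axis, for all 83 members and for each complex, in 39 2-cell-like columns, 28 oocyte-like columns with the cumulus list under 1000 CPM, 11 with it at 1000 CPM or more, and 1 somatic column. Points are libraries and bars are medians. The 2-cell-like points lie low for complex III (median 147 CPM) and high for complex IV (median 1542 CPM), and the somatic column is highest in every panel. One 2-cell-like column with 0 CPM of complex II is not drawn.

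Single genes were compared by the ratio of the median CPM of the 2 classes, with 1 CPM added to each median, over 8202 genes with a median of at least 10 CPM in 1 class. A ratio of at least 2 either way is called higher or lower. Since the labels name no animal, each class counts as 1 sample and no test was run. Of the 83 members, 65 were compared. The other 18 stayed under 10 CPM in both classes, namely Ndufa3, Ndufa5, Ndufb4, Ndufb10, Ndufc1, Ndufc2, Ndufs5, Ndufs6 and Ndufv3 of complex I, Cox4i2, Cox6a2, Cox7a1, Cox7b2, Cox7c, Cox8b and Cox8c of complex IV, and Atp5g2 and Atp5k of ATP synthase. Of the 65, 9 were higher and 32 lower in 2-cell-like columns, where 17.4% of all genes compared were higher and 36% lower. The median log2 ratio was −0.82 over the members and −0.36 over all genes. Against the low-cumulus columns, 15 of 55 members were higher and 19 lower, beside 18.8% and 35.2% of all genes, with medians of −0.18 and −0.31. The count of 55 is smaller because the filter of 10 CPM was applied anew, and lower members pass it only through the oocyte-like class. Of the 32 lower members, 26 were still at least 2-fold lower at the low-cumulus medians, 7 of them under 10 CPM in both classes and so not among the 19. With the 65 members kept, 15 were higher and 26 lower at the low-cumulus medians, beside 18.4% and 36.1% of the 8202 genes.

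**Figure D2:**
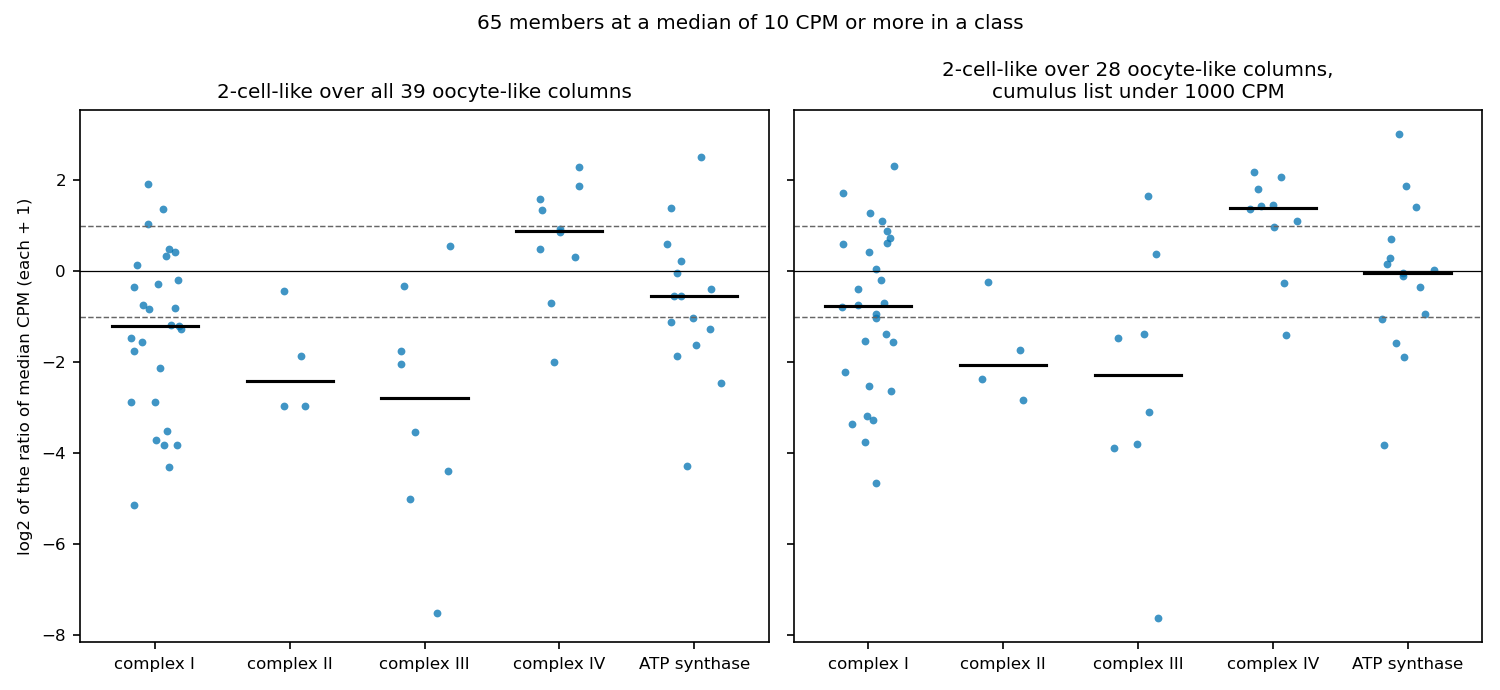
Log2 ratio of median CPM, 2-cell-like over oocyte-like, for the 65 members compared, by complex. The left panel uses all 39 oocyte-like columns and the right panel the 28 with the cumulus list under 1000 CPM. Points are genes, bars are medians and dashed lines mark 2-fold. Complex IV lies above 0 (median 0.89 on the left) and complex III below it (median −2.79).

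The direction differed between complex IV and complexes II and III. Of all genes compared, 17.4% were higher and 36% lower, and against low-cumulus columns 18.8% and 35.2%. Of complex IV, 4 of 10 genes compared were higher and 1 was lower, with a median log2 ratio of 0.89, and against low-cumulus columns 7 were higher and 1 lower (median 1.40). Of complex III, 6 of 8 were lower and none was higher (median −2.79), and against low-cumulus columns 5 of 7 were lower and 1 higher. With pooled counts and low-cumulus columns, Uqcrb, Uqcrc1 and Uqcrfs1 were under 2-fold (log2 ratios −0.59, −0.23 and −0.86), while Uqcr11, Uqcrc2 and Uqcrq stayed lower. Of complex II, 3 of 4 were lower, and against low-cumulus columns 2 of 3. Complex I had 3 higher and 15 lower of 28, and ATP synthase 2 higher and 7 lower of 15. Against low-cumulus columns these were 4 higher and 7 lower of 22 for complex I (18.2% and 31.8%). For ATP synthase they were 3 higher and 4 lower of 13 (23.1% and 30.8%). Both complexes were then near the shares of all genes.

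Among the core and accessory subunits of complex I, Ndufb6, an accessory subunit of the membrane arm, had the highest ratio. It had 12.2, 175 and 603 CPM (lowest, median, highest) in 2-cell-like columns and 6.15, 45.3 and 188 CPM in oocyte-like columns. Its log2 ratio was 1.93, and 2.32 against low-cumulus columns. Although the ranges overlapped, 35 of 39 2-cell-like columns lay above every low-cumulus column and 17 above every oocyte-like one. Ndufa4, named for complex I and assigned to complex IV in human cells, had a median of 136 CPM in 2-cell-like and 51.8 CPM in oocyte-like columns. With pooled counts its log2 ratio was 0.77, under 2-fold, and 1.25 with low-cumulus columns. Ndufb2, another accessory subunit of the membrane arm, had 52.7 against 25.1 CPM, just past 2-fold, and its log2 ratio was 0.85 with TMM factors. Ndufa1, a small membrane subunit, had 37.4 CPM in 2-cell-like and 42.6 CPM in oocyte-like columns.

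Ndufs4, an accessory subunit whose loss causes a Leigh-like disease in mice, had the lowest ratio of complex I. It had 0, 0 and 33.2 CPM in 2-cell-like columns, with no count in 25 of 39, against 5.73, 34.0 and 282 CPM in oocyte-like columns. All 39 2-cell-like columns were below the oocyte-like median and 29 below every oocyte-like column, so the ranges overlapped. Ndufa10, a further accessory subunit, had 0, 65.5 and 318 CPM in 2-cell-like columns and 100.4, 184 and 285 CPM in oocyte-like columns. The log2 ratio was −1.47, and 26 of 39 2-cell-like columns lay below the lowest oocyte-like one. Ndufs7, a core subunit near the quinone site, had a log2 ratio of −3.81. Ndufs1, Ndufs8 and Ndufv1, core subunits that carry electrons from NADH, had log2 ratios of −3.52, −4.31 and −1.21, which rested on how columns were combined. Ndufs8 had no count in 23 of 39 2-cell-like columns yet reached 163 CPM in one, and its log2 ratio was −0.25 with counts pooled over columns and the low-cumulus set. The same pooled ratio was −0.35 for Ndufs1 and 0.27, the opposite sign, for Ndufv1.

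Complex II, succinate dehydrogenase, also belongs to the citric acid cycle. Sdhd, which anchors the complex in the membrane, had 0, 6.92 and 134 CPM in 2-cell-like columns and 21.3, 60.7 and 286 CPM in oocyte-like columns, a log2 ratio of −2.96. The ranges overlapped, with 28 of 39 2-cell-like columns below every oocyte-like one. The other anchor, Sdhc, had 19.9 against 74.3 CPM (log2 ratio −1.85), and 20 of 39 2-cell-like columns lay below every oocyte-like one. Sdha, the flavoprotein that oxidises succinate, differed little, with 119 against 161 CPM (log2 ratio −0.44). Sdhb, the iron-sulfur subunit, had 0.816 against 13.1 CPM (log2 ratio −2.96), which was −0.32 with pooled counts and low-cumulus columns, and −0.41 over columns with at least 1000000 counts. Leaving out any of 20 single libraries moved it to between −2.08 and −1.91.

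Complex III held the member with the clearest separation. Uqcrc2, a core protein of the complex, had 0, 0 and 81.7 CPM in 2-cell-like columns and 83.4, 182 and 360 CPM in oocyte-like columns. No 2-cell-like column reached any oocyte-like one, and 21 of 39 held no count, which in the shallowest 2-cell-like library leaves room for up to 5.96 CPM (3 counts). Uqcrc2 was the only one of 65 members with such a gap, beside 0.341% of all genes below and 0.158% above in every column. It was also the only one of 55 against low-cumulus columns (1.1% below, 0.225% above) and of 50 against columns with the cumulus list under 250 CPM (1.56% below, 0.252% above). Its pooled level was 11.3 CPM in 2-cell-like and 189 CPM in oocyte-like columns. Uqcrc2 was thus 16.8-fold lower (exact binomial 95% interval 15.6 to 18.1, from read counts only, without amplification or spread between libraries). Its level did not follow the cumulus list (Spearman rho −0.15 over 39 oocyte-like columns), and its low-cumulus median was 196 CPM. The summed complex had a median of 357 CPM in low-cumulus and 147 CPM in 2-cell-like columns. With medians of 196 and 0 CPM, Uqcrc2 made up much of the low-cumulus sum and of that gap.

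The other core protein, Uqcrc1, and the Rieske iron-sulfur protein, Uqcrfs1, also had a 2-cell-like median of 0 CPM, against 30.9 and 20.0 CPM in oocyte-like columns. Their 2-cell-like columns ranged up to 111 and 115 CPM, and with pooled counts and low-cumulus columns their log2 ratios were −0.23 and −0.86, under 2-fold. Uqcr11, a small subunit, had 3.27 CPM in 2-cell-like and 48.5 CPM in oocyte-like columns (log2 ratio −3.54), and Uqcrq had 5.67 against 21.5 CPM. Uqcrh, the hinge protein that contacts cytochrome c1, differed in direction from the rest of the complex, with 23.3, 62.6 and 229 CPM in 2-cell-like columns and 3.23, 42.1 and 543 CPM in oocyte-like columns. Its log2 ratio was 0.56, 1.66 against low-cumulus columns and −0.36 with pooled counts. Uqcr10, another small subunit, had 12.9 against 16.4 CPM. Its log2 ratio was −0.33, 0.39 against low-cumulus columns and −0.27 with pooled counts and low-cumulus columns.

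Complex IV supplied 4 of the 9 higher members. Cox5a, a structural subunit facing the matrix, had 82.3, 218 and 1241 CPM in 2-cell-like columns and 6.15, 58.5 and 365 CPM in oocyte-like columns (log2 ratio 1.88). All 39 2-cell-like columns exceeded the oocyte-like median, and 37 exceeded every low-cumulus column. Cox8a, a small membrane subunit, had 294, 571 and 2212 CPM in 2-cell-like columns and 97.0, 224 and 542 CPM in oocyte-like columns (log2 ratio 1.34), and 22 of 39 2-cell-like columns lay above every oocyte-like one. Per kilobase of transcript, Cox8a had the highest median of the members with a known length in both 2-cell-like and low-cumulus columns, at 1039 CPM per kb in 2-cell-like and 386 CPM per kb in low-cumulus columns. Cox6c had 135 against 44.2 CPM (log2 ratio 1.59). With pooled counts the ratio was 0.63, under 2-fold, and 1.22 with low-cumulus columns. Cox5b and Cox7a2 had log2 ratios of 0.85 and 0.93, under 2-fold, and of 1.11 and 1.46 against low-cumulus columns. Cox7b had 34.6 CPM in 2-cell-like, 24.5 CPM in oocyte-like and 12.8 CPM in low-cumulus columns. Cox4i1, the common form of subunit IV, was the lower one, with 24.9 CPM in 2-cell-like columns, against 101 CPM in oocyte-like and 67.0 CPM in low-cumulus columns. Its log2 ratio was −1.98, and −1.39 against low-cumulus columns (−2.02 with pooled counts). Against columns with the cumulus list under 250 CPM it was −0.83, under 2-fold.

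Several subunits of complex IV come as a common form and a form known from few tissues. Cox6b2, known from testis and sperm, had 33.5, 155 and 946 CPM in 2-cell-like columns and 2.02, 30.5 and 109 CPM in oocyte-like columns (log2 ratio 2.30). It lay above every oocyte-like column in 24 of 39 2-cell-like columns. Its common counterpart, Cox6b1, had 40.2 against 32.1 CPM (log2 ratio 0.32), a sign that turned with TMM factors (−0.07), DESeq2 factors (−0.13) and pooled counts. Per kilobase, Cox6b2 made up a median of 81.1% of the pair in 2-cell-like columns and over 50% in all 39 of them. In low-cumulus columns it made up 64.2%, and in the somatic column 1.63%. Cox6a2, the form of striated muscle, stayed under 10 CPM, with a median of 7.90 CPM in 2-cell-like and 0.592 CPM in oocyte-like columns, and 25 of 39 2-cell-like columns lay above every oocyte-like one. It made up a median of 13.6% of its pair with Cox6a1 per kilobase in 2-cell-like columns and 1.61% in low-cumulus columns. The other restricted forms, Cox4i2, Cox7a1, Cox7b2, Cox8b and Cox8c, had a median of 0 CPM in both classes.

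**Figure D3:**
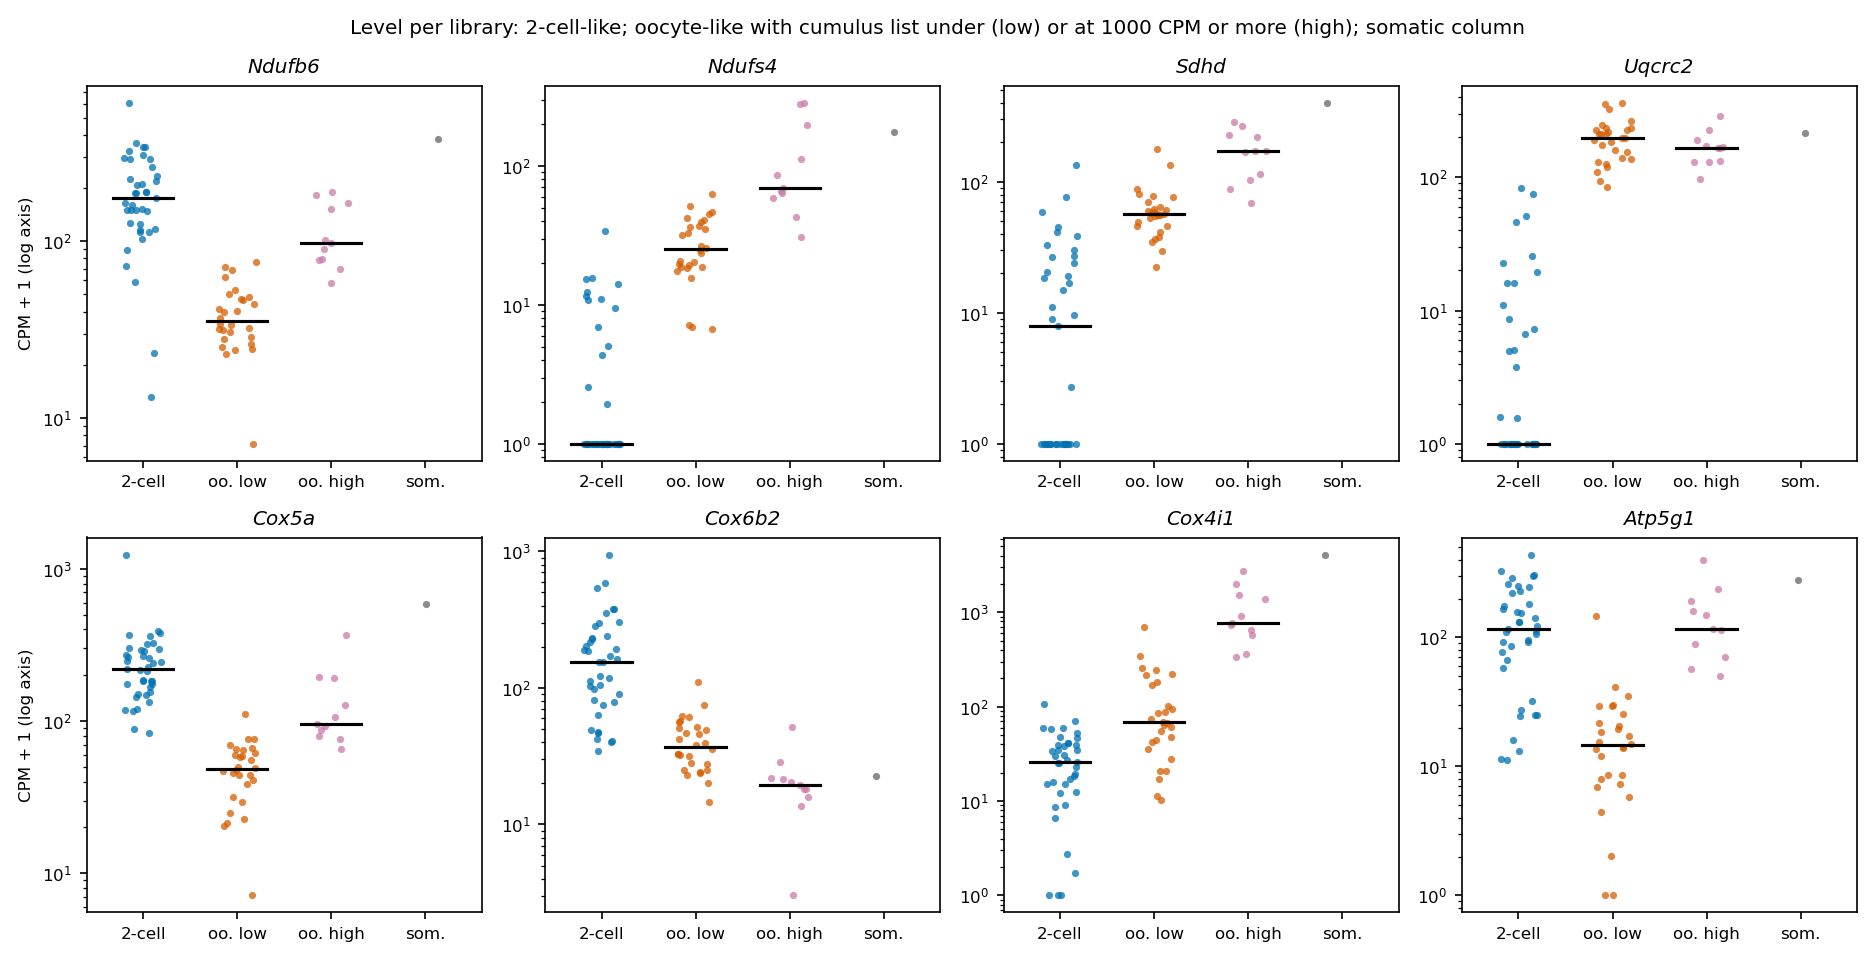
Level per library (CPM + 1, log axis) of 8 members in 2-cell-like columns, oocyte-like columns with the cumulus list under 1000 CPM ("oo. low") or at 1000 CPM or more ("oo. high"), and the somatic column. Points are libraries and bars are medians. Uqcrc2 alone shows no overlap between 2-cell-like columns (up to 81.7 CPM) and oocyte-like ones (from 83.4 CPM), and Cox6b2 is the only one shown whose somatic column (21.5 CPM) lies below the 2-cell-like range (from 33.5 CPM).

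ATP synthase had its largest ratio in Atp5g1, one of 3 genes for the membrane ring subunit c, which encode the same mature protein. Atp5g1 had 10.2, 116 and 438 CPM in 2-cell-like columns and 0, 19.5 and 397 CPM in oocyte-like columns (log2 ratio 2.51, and 3.01 against low-cumulus columns). The ranges overlapped, and 35 of 39 2-cell-like columns exceeded the oocyte-like median. Neither of the other genes for subunit c was 2-fold apart by medians: Atp5g3 had 7.27 against 11.1 CPM and Atp5g2 had 6.51 against 6.25 CPM. With pooled counts their log2 ratios were −1.52 and −0.93, and −0.01 and 0.89 with low-cumulus columns. Atp5pb, for subunit b of the stalk, had 86.9 CPM in 2-cell-like and 32.3 CPM in oocyte-like columns. With pooled counts its log2 ratio was 0.41, under 2-fold, and 1.59 with low-cumulus columns. The catalytic head was mixed. Atp5b, the beta subunit, had 422 against 358 CPM, with a log2 ratio of 0.24 that was −0.08 with TMM and with DESeq2 factors. Atp5a1, the alpha subunit, had 65.4 against 202 CPM (log2 ratio −1.61). With pooled counts the ratio was −1.06, and −0.85, under 2-fold, with low-cumulus columns. Atp5d, the delta subunit, had 0 against 18.5 CPM (log2 ratio −4.28), and Atp5j, coupling factor 6 of the stalk, had 4.72 against 30.3 CPM (log2 ratio −2.45).

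Members that passed 2-fold with the medians of all 3 oocyte-like sets (all columns, cumulus list under 1000 CPM and under 250 CPM) and with pooled counts of all and of low-cumulus columns were 5 higher, namely Ndufb6, Cox5a, Cox6b2, Cox8a and Atp5g1, and 14 lower. Of all 8202 genes compared, 13.9% were higher and 20.9% lower by the same criterion, against 7.69% and 21.5% of the 65 members, so the share lower was near the background and the share higher below it. The filter of 10 CPM was applied here over all columns only, and 5 of the 14 were under it in both 2-cell-like columns and those under 250 CPM of the list. The lower ones included Ndufa7, Ndufa10, Ndufa12, Ndufb7, Ndufs4, Ndufs7, Sdhc, Sdhd, Uqcr11, Uqcrc2, Uqcrq, Atp5d and Atp5j. At medians alone, 9 were higher and 21 lower in all 3 sets, beside 15.8% and 33.9% of all genes. Against the 18 columns with the list under 250 CPM, 19 of the 65 members were higher and 21 lower, beside 19.4% and 36.2% of all genes. With the filter applied anew to those columns, 19 of 50 were higher and 11 lower, beside 20% and 35.2%. At an equal depth of 100000 counts, a median of 45 members had a count in 2-cell-like columns, against 60 in oocyte-like and 53.5 in low-cumulus columns. Genes of all kinds with a count at that depth numbered 7578 in 2-cell-like and 8567 in oocyte-like columns.

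The single somatic column held far more OXPHOS RNA than either class. Its summed level was 44622 CPM, 10.9 times the 2-cell-like median and 13.8 times the oocyte-like median. It was above every 2-cell-like column for 56 of the 65 members compared, and above every low-cumulus column for 61, the exceptions being Cox6b2, Ndufa10, Sdha and Uqcrc2. Of all genes compared, 12.4% were above every 2-cell-like column there and 22.3% above every low-cumulus column. The median member was 24.8 times higher there than in low-cumulus columns, where the median of all genes compared was 0.375 times. Cox4i1 had 4094 CPM in the somatic column, against 67.0 CPM in low-cumulus columns, while Ndufa10 had 70.3 against 196 CPM. In the 11 oocyte-like columns with the cumulus list at 1000 CPM or more, the sum was 5343, 9966 and 28121 CPM, 3.50 times the low-cumulus median, and 56 of 65 members had over 2 times the low-cumulus median, as did 17.6% of all genes compared. The highest such ratios were those of Sdhb (16.3), Atp5d (14.4) and Uqcrc1 (14.0), and Cox6b2 (0.527), Uqcrc2 (0.844) and Ndufa10 (0.916) were lower there.

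Across the 39 oocyte-like columns, the summed level went with the cumulus list (Spearman rho 0.89), the oviduct markers (0.86) and the summed cytosolic ribosomal proteins (0.95). It did not go with the mitochondrially encoded genes (0.10). Single members had a rho above 0.5 with the cumulus list in 58 of 65 cases (89.2%), against 15.9% of all genes compared, with a median of 0.78 against −0.10. Within the 28 low-cumulus columns the rho of the sum was still 0.76 with the cumulus list and 0.74 with the oviduct markers. In the 39 2-cell-like columns the rho with the cumulus list was 0.02, and it was 0.71 with the ribosomal proteins. These values are shares of the same libraries and describe them only. The part of somatic RNA in the oocyte-like level of each gene was not tested beyond leaving out the columns above. The limit on the cumulus list does not remove columns with oviduct markers. Library 56, a low-cumulus column at 131 CPM of the list, held 1046 CPM of oviduct markers and the highest low-cumulus sum, 7046 CPM.

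**Figure D4:**
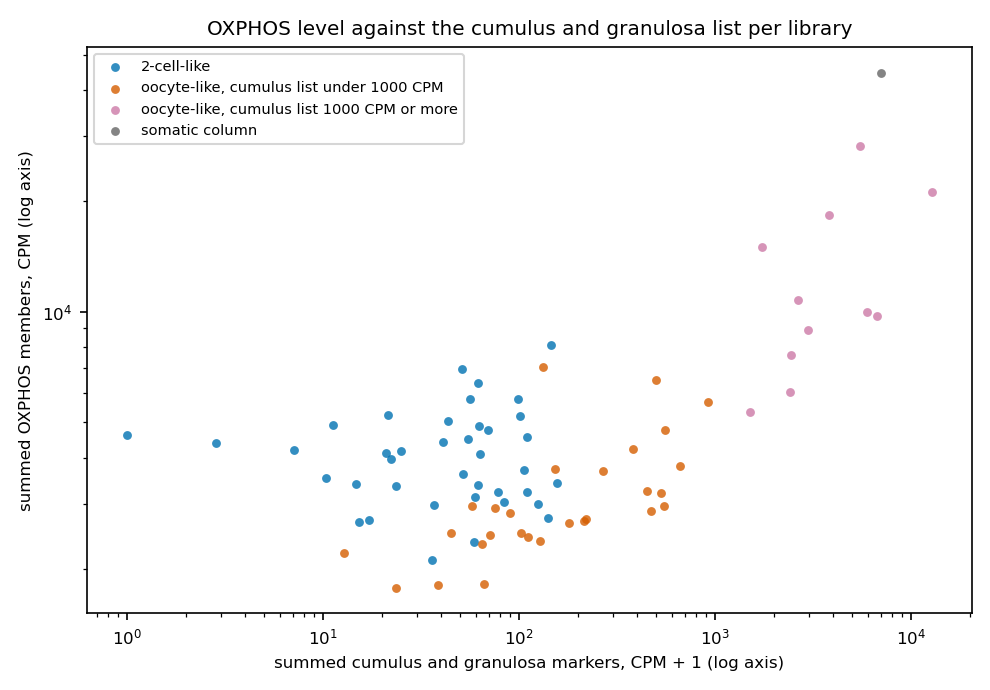
Summed CPM of the 83 members against the summed CPM of 19 cumulus and granulosa markers (1 CPM added), both on log axes, for each library. Colours mark the class. Oocyte-like points run upward to the right (Spearman rho 0.89 over 39 columns), the somatic column stands at 44622 CPM, and 2-cell-like points show no slope (rho 0.02).

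The comparison the study was designed for sets the variant against wild type. The genotype is known here only from the same labels whose stage went against the markers in many libraries, and it was not checked against any marker, so the values compare labels and may not compare genotypes. Within oocyte-like columns, the mutant label (9 libraries, all labelled 2-cell) and the wild-type label (26 libraries, of both stage labels) differed in OXPHOS level and in cumulus RNA together. The summed level had a median of 2873 CPM (1774 to 9710) under the mutant label, against 4485 CPM (1814 to 21193) under the wild-type label, and the cumulus list had a median of 110.1 CPM under the mutant label and 473 CPM under the wild-type label. Of 72 members compared, none was higher and 38 lower under the mutant label, where 0.428% and 7.11% of all genes were higher and lower. Uqcr11 had 15.0 against 86.8 CPM (log2 ratio −2.46) and Cox4i1 had 73.0 against 234 CPM (−1.66), with overlapping ranges in both. Cytosolic ribosomal protein genes were lower in 64 of 78 cases.

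Over low-cumulus columns, 8 with the mutant label and 17 with the wild-type label, 8 of 58 members were lower and none higher (2.09% and 0.835% of all genes). The sums then had a median of 2654 CPM under the mutant label and 2918 CPM under the wild-type label, and the median log2 ratio of the members was −0.28, against −1.06 over all oocyte-like columns. The 8 were Ndufb7, Ndufs8, Uqcr10, Uqcr11, Uqcrc1, Atp5g3, Atp5j and Atp5md. Uqcrc1 had 0, 7.73 and 30.9 CPM under the mutant label and 1.61, 26.5 and 45.9 CPM under the wild-type label, and the ranges overlapped. The cumulus list was still lower under the mutant label, at a median of 83.4 against 179 CPM, so the genotype label and cumulus RNA cannot be told apart here.

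Within 2-cell-like columns, the mutant label covered 30 libraries, 19 labelled oocyte and 11 labelled 2-cell, and the wild-type label 7 libraries, all labelled oocyte. The summed level was alike, at a median of 4151 CPM (2112 to 8106) under the mutant label and 4099 CPM (3354 to 6993) under the wild-type label. Of 45 members compared, 3 were higher and 15 lower under the mutant label, beside 14.6% and 15.3% of all genes, and 10 of the lower ones belonged to complex I, of which 18 were compared. Ndufa4 had 0, 119 and 290.1 CPM under the mutant label and 136, 296 and 874 CPM under the wild-type label (log2 ratio −1.31). Ndufb8, an accessory subunit of the membrane arm, had 0, 54.8 and 199.9 CPM under the mutant label and 85.4, 124 and 191 CPM under the wild-type label (−1.16). Both ranges overlapped, and both genes were at 0 CPM in at least 1 mutant-labelled library. Ndufa10 (80.5 against 25.0 CPM), Atp5o (22.8 against 8.48 CPM) and Sdha (119 against 53.8 CPM) were the higher ones. With pooled counts 8 members were higher and 9 lower, a setting for which no share of all genes was worked out. Without library 5, 7 or 8 only 1 member was higher by medians.

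**Figure D5:**
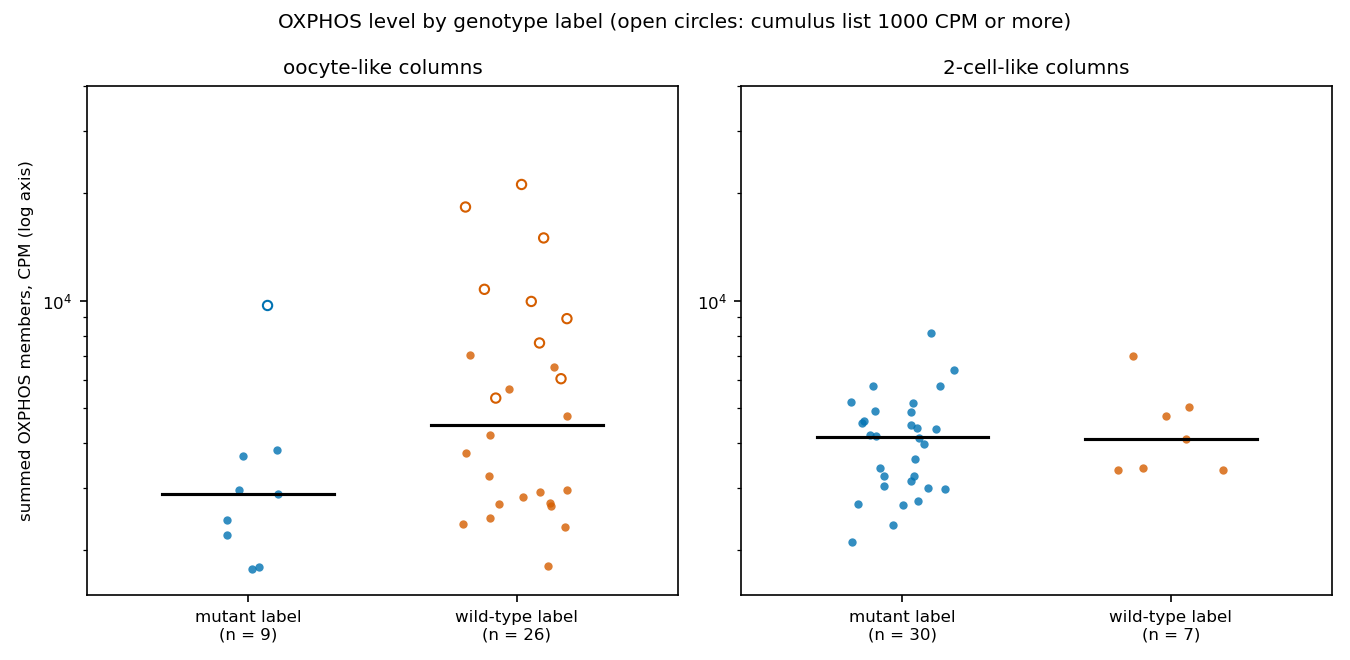
Summed CPM of the 83 members per library (log axis) under the mutant and wild-type labels, within oocyte-like columns (9 and 26 libraries) and within 2-cell-like columns (30 and 7). Bars are medians, and open circles are libraries with the cumulus list at 1000 CPM or more. The highest oocyte-like points are open circles, and 2-cell-like medians are 4151 and 4099 CPM.

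All 11 mitochondrially encoded genes compared were higher in 2-cell-like than in oocyte-like columns (median log2 ratio 2.27), beside 17.4% of all genes compared. Their sum was 6004, 21219 and 66696 CPM in 2-cell-like columns and 295, 2781 and 5923 CPM in oocyte-like columns, without overlap. mt-Co1, the catalytic subunit of complex IV, had a median of 4708 against 473 CPM, and mt-Nd1 of complex I had 5187 against 558 CPM. Leaving mitochondrially encoded genes out of the library totals turned no ratio of the 34 members examined under each setting.

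Beside the related lists that follow, 17.4% of all genes compared were higher and 36% lower, with a median log2 ratio of −0.36. The lists are compared over all oocyte-like columns except where a smaller set is named. Assembly factors of the complexes were 3 higher and 5 lower of 20 (median log2 ratio −0.30). Ndufaf4, for complex I, had 178 CPM in 2-cell-like and 70.1 CPM in oocyte-like columns, and Cox11, which delivers copper to complex IV, had 13.9 against 0.885 CPM. Coa5 had 0 against 35.2 CPM, and Acad9, a complex I assembly factor, had 0 against 17.6 CPM. Of chain genes outside the name pattern, Ndufab1, the acyl carrier protein of complex I, had 368 against 156 CPM, while Etfa, which feeds electrons from fatty acid oxidation, had 24.5 against 99.6 CPM. Pyruvate dehydrogenase and citric acid cycle genes were 3 higher and 9 lower of 18 (median −1.13). Mpc1 and Mpc2, the carrier that brings pyruvate into mitochondria, were among the higher ones in this list (168 against 49.7 CPM and 29.4 against 10.5 CPM), and Suclg1 and Idh3b of the cycle had 0 against 21.5 CPM and 0 against 13.0 CPM.

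Mitochondrial ribosome genes were 8 higher and 19 lower of 56 (14.3% and 33.9%, median 0.08), near the 17.4% and 36% of all genes. Glycolysis genes were 1 higher and 5 lower of 13 (7.69% and 38.5%, median −0.37). The glycolysis gene that was higher was Ldhb, at 2551 against 1258 CPM. Against low-cumulus columns, glycolysis genes were 1 higher and 2 lower of 13 (median 0.11), beside 18.8% and 35.2% of all genes. Against columns with the cumulus list under 250 CPM they were 5 higher and 2 lower (median 0.46), beside 20% and 35.2%, so their direction changed with the columns used. Carriers for ADP and ATP and their partners were 1 higher and 2 lower of 8, with Vdac1 of the outer membrane at 245 against 107 CPM and Slc25a31, an ADP/ATP carrier of germ cells, at 1.55 against 63.7 CPM. Against low-cumulus columns, these carriers and partners were 3 higher and 1 lower of 7 (median 0.90), beside 18.8% and 35.2% of all genes. Regulators of mitochondrial genes were 3 higher and 5 lower of 12. Gabpa, the DNA-binding part of GABP, had 21.8 against 2.21 CPM, and Tfb1m, which methylates mitochondrial ribosomal RNA, had 3.65 against 66.6 CPM. Cytosolic ribosomal protein genes were 4 higher and 18 lower of 76 (median −0.37). Against low-cumulus columns they were 17 higher and 7 lower of 72 (median 0.35), beside 18.8% and 35.2% of all genes.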

How the data were processed

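The authors deposited raw gene counts for 96 libraries, in whole numbers with no normalization. Reads were trimmed with Trim Galore 0.4.4 and aligned with HISAT2 2.1.0 to GRCm39, and DESeq2 was used, per the submitters' processing notes. The gene counter, its strand setting and its handling of reads shared between gene copies are not given in the sources used here, so levels of short members with processed copies are uncertain. The protocols name no molecular identifiers, and polyadenylated RNA was captured on beads, so each CPM is a share of captured RNA.

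Of 36983 gene entries, 48 that repeated a symbol (Atp5o among them) were summed. Libraries were grouped by the markers and thresholds in the text, CPM used the total count of each library, and genes were compared over the whole table by ratios of class medians (+ 1 CPM), called at 2-fold. Pooled ratios carry exact conditional binomial intervals, which treat reads as independent and cover neither amplification nor the spread between libraries. Alternatives were TMM factors (edgeR 4.0.16), DESeq2 1.42.0 size factors, other filters, thresholds and pseudocounts, pooled counts, means, and leaving out libraries (Python 3.11.15, R 4.3.3). The script was checked on simulated data. Transcript lengths were those of the principal protein-coding transcript in GENCODE for 80 members (all but Atp5md, Atp5pb and Ndufb1). Genes named by rule were, in each complex, the member with the highest pooled level per kilobase and the 2 members at either end of the ratios, together with the isoform pairs, complex II, Uqcrfs1, Ndufv1, Ndufs1, Atp5a1, Atp5b, the members under the filter, and genes at either end of each related list. Cox5b, Cox6c, Ndufa10, Ndufb2, Ndufs7, Uqcrq, members named under genotype labels, and those that passed 2-fold in every set, were picked after their values were seen. The values of 1 member are not reported here. The members and lists were chosen with earlier results of these data known. Libraries of 1 cell whose labels name no animal are no replicates of a condition, so no test was run.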

Additional observations from a re-analysis of the deposited data

Results flagged for a closer look

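Within the groups of 4 to 10 libraries, 1 library stood apart from the rest of its group in 11 of 18 pairs of group and measure, by a gap larger than Dixon's critical value, which chance exceeds in about 1 in 20 groups. All 11 came from 2 libraries, and the measures of 1 library are not independent. Among the 9 oocyte-like libraries with the mutant label, library 87 had 9710 CPM of the members together, with 3249 CPM of complex I, 839 CPM of complex II, 1362 CPM of complex III, 1673 CPM of complex IV and 2586 CPM of ATP synthase. The next highest sum in that group was 3812 CPM. The 6 kept libraries labelled negative control were 4 oocyte-like and 2 2-cell-like, so the 1 in 20 may not hold for this mixed group. Among them, library 23 had 28121 CPM, with 9847 CPM of complex I, 3268 CPM of complex III, 7068 CPM of complex IV and 6865 CPM of ATP synthase. The cumulus list stood at 6739 CPM in library 87 and at 5520 CPM in library 23, both among the oocyte-like columns at 1000 CPM or more, and its part in these levels was not tested.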

How the results depend on the processing

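No paired analysis was possible because the label numbers run from 1 to 96 over all groups and no number is shared between groups. For the comparison of classes, the number of lower members was 49 with means over columns and 6 with a level filter of 50 CPM, where the median log2 ratio was 0.40 over 22 members. Shares of all genes were not worked out for means, this filter or pooled counts of the classes. Those member counts therefore have no background beside them. Without columns at 1000 CPM of the cumulus list, 15 were higher and 19 lower, beside 18.8% and 35.2% of all genes. A further 7 members stayed 2-fold lower but fell out of the level filter. At 250 CPM, a limit chosen after seeing the data, the median was 0.28, with 19 higher and 11 lower, beside 20% and 35.2% of all genes. The pooled counts without columns at 1000 CPM gave 14 higher and 16 lower, with Ndufv1 reversed at 0.27. For mutant over wild-type label, 61 of 77 members were lower in oocyte-like columns with pooled counts, beside 14.9% of all genes. By medians without columns at 1000 CPM, 8 of 58 were lower, beside 2.09%. In 2-cell-like columns pooled counts gave 8 higher and 9 lower, with no share of all genes worked out. TMM and DESeq2 factors lowered the median log2 ratio of all genes by 0.21 and 0.18, and the higher share of called genes was 25.3% and 26.5%, against 32.6% with CPM. They gave 8 higher and 36 or 37 lower members. Over all genes, 1135 were higher and 3359 lower of 8335 with TMM factors, and 1193 and 3317 of 8359 with DESeq2 factors.

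Leaving out each library in turn kept the median log2 ratio of the members between −1.02 and −0.81, the higher members between 8 and 10 and the lower ones between 28 and 33, and the log2 ratio of the summed level between 0.24 and 0.35. Under genotype labels the ranges were −1.16 to −0.89, 0 to 0 and 31 to 44 in oocyte-like columns, and −0.52 to −0.22, 1 to 3 and 11 to 18 in 2-cell-like columns, where the count of 1 higher came without library 5, 7 or 8. Atp5h, Atp5md, Cox7a2, Ndufb2, Ndufb5 and Ndufv1 crossed 2-fold when 1 library was left out. The higher level filter and the smaller sets of columns compare fewer members, and the cause of the other shifts was not tested. Levels near 10 CPM rest on few counts in libraries of 162539 counts.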
